A study of Mus musculus with 47 samples.

Results

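This account covers Nodal signalling in mouse embryonic stem (ES) cells that lack members of the Tcf/Lef family, read from the genes Nodal, Gdf3, Tdgf1, Lefty1, Lefty2, Fst and Gsc. Every probe that the array's annotation assigns to one of these 7 gene symbols was taken, which gave 8 of the 25697 probes and 7 of the 16593 named genes. Tdgf1 has 2 probes and each other gene has 1. RNA was measured on 47 Illumina mouse arrays, which were normalized in 2 sets that are kept apart here.

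The KO cells are Tcf7l1-/-, the 3XKO cells are Tcf7-/- Tcf7l2-/- Lef1-/- and keep Tcf7l1, the 4XKO cells carry all 4 deletions, and WT cells carry none. All were grown in N2B27, a serum-free medium. In ESC medium the cells had 1 uM PD0325901 (an inhibitor of the kinase MEK), 3 uM CHIR99021 (an inhibitor of the kinase Gsk3, which stabilises beta-catenin) and 1000 U/mL LIF. In EpiLC medium, which moves ES cells towards a state like the early epiblast, they had 12 ng/mL Fgf2. For EpiLC+CH, Fgf2 was given for 3 days and 3 uM CHIR99021 was then added for 24 hours. The 4 lines were each measured in these 3 media with 3 arrays a group. In ContinuedCH (3 arrays, WT only), both Fgf2 and CHIR99021 were present throughout. A further 8 arrays hold WT cells, 3 in LIF+PD+24hrCH, 3 in LIF+PD and a single one each in LIF+CH and PD+CH, all at the doses above. For LIF+PD+24hrCH the protocol gives 24 hours of LIF and PD0325901 and then 48 hours of CHIR99021, although the name says 24hrCH. The labels call the replicates biological triplicates and name no clone, so the effect of a genotype and that of any other property of its line cannot be told apart.

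Nodal is a secreted ligand of the TGF-beta family. With its co-receptor Cripto, the product of Tdgf1, it activates receptors that phosphorylate Smad2 and Smad3, which enter the nucleus and act with Smad4 and Foxh1. The pathway raises the expression of its own ligand and of its inhibitors Lefty1 and Lefty2, so that Nodal signalling is coupled to feedback inhibition. In the mouse embryo it maintains the epiblast and patterns the primitive streak, and in ES cells it is active but not required for self-renewal. Gdf3 encodes a related ligand, Fst encodes follistatin, which binds and neutralises activins, and Gsc encodes the homeodomain protein Goosecoid, a target gene of the organizer region.

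On assembly GRCm38.p6, Nodal lies on chromosome 10 at 61417972-61425338, Gdf3 on chromosome 6 at 122605403-122610087, Tdgf1 on chromosome 9 at 110939608-110946158, Fst on chromosome 13 at 114452262-114458989 and Gsc on chromosome 12 at 104471209-104473236. Lefty2 (chromosome 1, 180893108-180899107) and Lefty1 (chromosome 1, 180935022-180938401) are neighbours, about 36 kb apart. RefSeq promoter sequences were at hand for only 3 of the 7 genes, Nodal, Gsc and Tdgf1, and the 250 bases before each of their starts are shown for that reason. Nodal and Gsc differed between the lines in EpiLC, while the brighter Tdgf1 probe was called in no line against WT. Any relation of the letters to these levels was not tested. Capitals mark matches on either strand to the TCF/LEF core (the letters CTTTGAA or CTTTGAT or else CTTTGTA or CTTTGTT), to the FOXH1 motif AATNNACA, or to the SMAD palindrome GTCTAGAC.
Nodal (chr10:61417722-61417971, plus strand): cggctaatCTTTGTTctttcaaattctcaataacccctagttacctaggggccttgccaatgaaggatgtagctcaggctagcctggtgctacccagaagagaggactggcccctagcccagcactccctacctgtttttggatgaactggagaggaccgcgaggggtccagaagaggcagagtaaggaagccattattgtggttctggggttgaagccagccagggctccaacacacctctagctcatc
Gsc (chr12:104473237-104473486, minus strand): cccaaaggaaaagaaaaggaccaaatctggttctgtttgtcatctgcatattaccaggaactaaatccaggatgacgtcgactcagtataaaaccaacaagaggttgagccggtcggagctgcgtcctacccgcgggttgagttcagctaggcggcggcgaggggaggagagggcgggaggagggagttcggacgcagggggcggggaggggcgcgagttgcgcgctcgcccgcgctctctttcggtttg
Tdgf1 (chr9:110946159-110946408, minus strand): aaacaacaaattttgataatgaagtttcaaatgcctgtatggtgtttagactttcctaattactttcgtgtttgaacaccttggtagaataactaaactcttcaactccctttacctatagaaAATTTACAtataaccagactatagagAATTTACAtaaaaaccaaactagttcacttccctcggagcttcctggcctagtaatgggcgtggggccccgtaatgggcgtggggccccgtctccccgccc
The Nodal window holds 1 TCF/LEF core, 242 bases before the start, and the Tdgf1 window holds 2 FOXH1 motifs, 127 and 101 bases before it. The Gsc window holds none of these letters. Among 32851 mouse promoter windows of the same length, 14.8% hold a TCF/LEF core, 10.9% a FOXH1 motif and 0.167% the SMAD palindrome, and no motif here overlaps another. A match describes the letters only, and no binding was measured.

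Values are normalized intensities on a linear scale with the background subtracted. The 39 arrays of the first media and the 8 arrays in LIF or PD media were normalized as separate sets, judging by their values, and are compared only within a set. A gene is below background in a group when every array lies under 13.6 in the first set or 14.3 in the second. Differences are log2 values with their standard errors from limma's moderated test on all probes, and "called" means a Benjamini-Hochberg adjusted p under 0.05. For 43 of 45 replicated arrays, the nearest other array came from the same group. The exceptions, KO EpiLC+CH array 1 and 4XKO EpiLC+CH array 1, were closest to untreated EpiLC of their own line, by small margins. The correlation with the nearest untreated array was 0.989 in KO, against at most 0.988 within the group. In 4XKO it was 0.984, against 0.982. Tcf7l1 read 181 to 744 in KO, 638 to 956 in 4XKO and 1583 to 2387 in 3XKO, against 1321 to 2127 in WT, while Tcf7l2 overlapped, with 31.1 to 80.5 in 3XKO and 23.7 to 103 in WT. In EpiLC, Lef1 was at most 32.4 in 3XKO, 8.4 in 4XKO and 7.7 in KO, against 63 to 73 in WT. The files do not place these probes relative to the deleted sequence, and Tcf7 has no named probe.

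Over the 13 groups of the first set, Gdf3 had the narrowest range, with group means between 1211 and 2333 (1.93-fold), and Tdgf1 varied 2.55-fold between its extreme group means. Nodal varied 6.01-fold (85.7 to 515), Fst 21.9-fold (50.8 to 1112), Lefty1 23.8-fold (60 to 1427) and Lefty2 45.8-fold (20.3 to 931). Gsc ran from below background to 393. When the 13 groups were put in order of their means, the arrays of neighbouring groups overlapped in 12 of 12 neighbouring pairs for Tdgf1, 10 for Gdf3, 9 each for Nodal, Lefty1 and Fst, 6 for Gsc and 4 for Lefty2. The lowest mean of Nodal was that of WT EpiLC and the highest that of WT ESC, whereas Lefty1 was lowest in WT ESC and highest in WT EpiLC+CH.

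**Figure D1:**
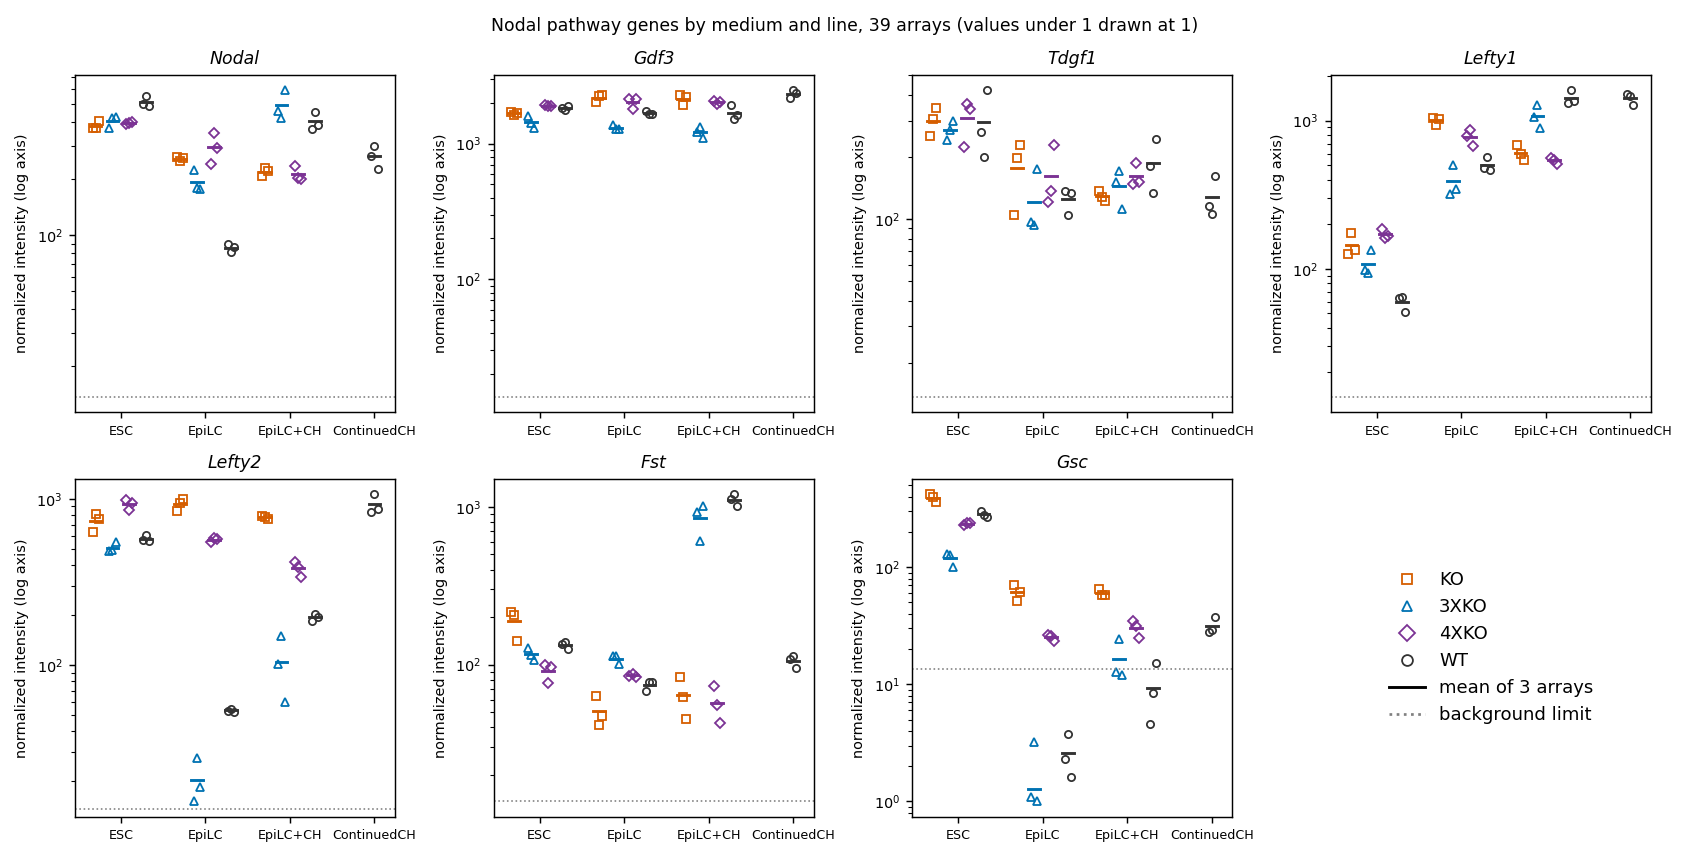
Normalized intensity (log axis) of each gene on the 39 arrays of the first set, by medium and line; symbols are arrays, bars are means of 3 arrays, and the dotted line is the background limit of 13.6. WT EpiLC has the lowest Nodal mean (85.7), and Fst stands between 608 and 1203 in EpiLC+CH of 3XKO and WT, above every array of the other groups.

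The change from ESC to EpiLC medium takes away PD0325901, CHIR99021 and LIF together and adds Fgf2. Effects of each of these steps and of leaving the naive, self-renewing state cannot be told apart. In WT cells Nodal, Lefty2, Fst, Tdgf1 and Gsc were lower in EpiLC than in ESC and Lefty1 was higher, so that 6 of the 7 genes were called, 1 higher and 5 lower. Over all probes 15.7% were called higher and 14.3% lower in this comparison. Beside these genes, the summed intensity of 8 naive markers was 2907 to 3280.4 in WT EpiLC, where Tbx3 was below background, against 25606 to 28554 in WT ESC. The sum of 5 EpiLC markers was 19701 to 21904 in WT EpiLC, against 1516 to 1666 in WT ESC, where Fgf5 and Pou3f1 were below background. Most of this sum was Dnmt3b, with means of 14394 in WT EpiLC and 1087 in WT ESC.

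Nodal, the ligand, read 89.8, 80.7 and 86.5 in WT EpiLC, against 500.4, 555 and 490.3 in WT ESC. The groups were far apart, and the mean was 6.01-fold lower in EpiLC (log2 difference -2.59 ± 0.13, adjusted p = 4.77e-16). In all 3 knockout lines the fall was smaller. Nodal read 262, 248 and 257 in KO EpiLC, against 373, 373 and 408 in KO ESC. It read 239, 351 and 294 in 4XKO EpiLC, against 393, 396 and 401 in 4XKO ESC. In 3XKO, which keeps Tcf7l1, it read 224, 178 and 177 in EpiLC, against 372, 420.2 and 428 in ESC. The arrays of the 2 media did not overlap in any line, and the fall was called in all 4, at 1.5-fold lower in KO, 2.12-fold lower in 3XKO, 1.36-fold lower in 4XKO and 6.01-fold lower in WT. The call in 4XKO was lost in 1 of the 6 fits that each left out 1 array, that without 4XKO EpiLC array 1 (adjusted p = 0.117). The change in each knockout line differed from that in WT, by 2.00 ± 0.18 in KO (adjusted p = 1.13e-09), 1.51 ± 0.18 in 3XKO (adjusted p = 8.06e-07) and 2.14 ± 0.18 in 4XKO (adjusted p = 3.25e-10).

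Gdf3, the other ligand, read 1731, 1649 and 1654 in WT EpiLC, against 1819, 1760.4 and 1889 in WT ESC, and this difference was not called (-0.12 ± 0.09, adjusted p = 0.393). In KO it was 1.31-fold higher in EpiLC (2009, 2247 and 2286 in KO EpiLC, against 1705, 1614 and 1686 in KO ESC, adjusted p = 0.00169). The KO arrays of the 2 media did not overlap, and the change differed from that in WT by 0.50 ± 0.13 (adjusted p = 0.00456). In 3XKO and 4XKO no change of Gdf3 was called (-0.13 ± 0.09 and 0.09 ± 0.09).

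Tdgf1, which encodes the co-receptor Cripto, read 137, 104 and 134 in WT EpiLC, against 266, 201 and 425 in WT ESC with its brighter probe. Its replicates were widely spread in ESC, yet the 2 groups did not overlap (2.28-fold lower in EpiLC, adjusted p = 0.00268). The log2 difference was -0.83 ± 0.30 in KO (adjusted p = 0.0548, not called), -1.22 ± 0.30 in 3XKO (adjusted p = 0.0024) and -0.96 ± 0.30 in 4XKO (adjusted p = 0.0221). In none of the 3 lines was a difference from the change in WT called, and the call in 4XKO was lost in 4 of 6 fits with 1 array left out (adjusted p up to 0.123), being kept without 4XKO EpiLC array 3 and without 4XKO ESC array 1. Without KO EpiLC array 3 the fall in KO was called (-1.05, adjusted p = 0.0253). It was also called with cyclic loess (adjusted p = 0.0458), without the dimmest probes (0.0371), with a replicate block (0.0235) and with other priors (0.0245). With KO EpiLC arrays 2 and 3 averaged it was called too (0.0389), whereas the 4XKO call was lost with both probes averaged (0.215). The dimmer Tdgf1 probe read 6.8, 11.3 and 16.2 in WT EpiLC, against 23.6, 28.6 and 44.1 in WT ESC (-1.53 ± 0.77, adjusted p = 0.154).

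Lefty1 and Lefty2, the feedback inhibitors, moved in opposite directions in WT. Lefty1 read 482, 569 and 465 in WT EpiLC, against 63.8, 64.7 and 51.4 in WT ESC, which is 8.44-fold higher in EpiLC (adjusted p = 2.65e-15). Lefty2 read 53, 54.5 and 52.4 in WT EpiLC, against 567, 602 and 558 in WT ESC, which is 10.8-fold lower (adjusted p = 1.56e-14). The 2 neighbouring genes thus changed in opposite directions, and each replicate of one medium was clear of each replicate of the other.

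Lefty1 was higher in EpiLC than in ESC in every line. It read 1035, 938 and 1033 in KO EpiLC, against 125, 176 and 135 in KO ESC (6.98-fold higher). It read 321, 501 and 347 in 3XKO EpiLC, against 97.7, 94.1 and 133 in 3XKO ESC (3.57-fold higher). The levels of the media were far apart in both lines. It read 790.3, 864 and 671 in 4XKO EpiLC, against 187, 161 and 167 in 4XKO ESC (4.50-fold higher). The rise was smaller than in WT in 3XKO (-1.24 ± 0.23, adjusted p = 0.000413) and 4XKO (-0.91 ± 0.23, adjusted p = 0.00572), and the difference from WT was not called in KO (-0.27 ± 0.23, adjusted p = 0.541).

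Lefty2 behaved differently in each kind of line. It read 840.3, 943 and 990.1 in KO EpiLC, against 630.5, 814 and 752 in KO ESC, and no fall was called (0.34 ± 0.20, adjusted p = 0.279). It read 553, 580.5 and 572 in 4XKO EpiLC, against 986, 857 and 949 in 4XKO ESC, a fall that was called at 1.64-fold lower. In 3XKO the gene came close to background, with 15.1, 27.4 and 18.5 in EpiLC, against 487, 492 and 547 in ESC (25.8-fold lower, adjusted p = 2.9e-17). Relative to the change in WT, the change of Lefty2 differed by 3.77 ± 0.28 in KO (adjusted p = 1.89e-11) and 2.72 ± 0.28 in 4XKO (adjusted p = 1.51e-08). In 3XKO it differed the other way, by -1.26 ± 0.28 (adjusted p = 0.00265).

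Fst was modestly lower in WT EpiLC (68, 77.6 and 77.7) than in WT ESC (135, 140.2 and 125), 1.79-fold lower with adjusted p = 0.00171. In KO it read 63.5, 41.7 and 47.3 in EpiLC, against 216, 208 and 141 in ESC (3.70-fold lower), a larger fall than in WT (-1.04 ± 0.29, adjusted p = 0.011). No change was called in 3XKO (-0.09 ± 0.21) or 4XKO (-0.08 ± 0.21).

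Gsc, the target gene, was expressed in WT ESC (301, 279.6 and 267) and below background in WT EpiLC (2.3, 3.8 and 1.6), at least 20.7-fold lower in EpiLC (adjusted p = 1.74e-15). In 3XKO it was also below background in EpiLC (1.1, 3.2 and -0.5), against 130.4, 126 and 101 in 3XKO ESC (at least 8.71-fold lower). In KO and 4XKO it fell without reaching background. It read 70.8, 51.6 and 60.9 in KO EpiLC, against 420.1, 396 and 364 in KO ESC (6.48-fold lower). It read 26.2, 26.1 and 23.5 in 4XKO EpiLC, against 229, 240.4 and 237 in 4XKO ESC (9.34-fold lower). Both falls were smaller than in WT (4.18 ± 0.51 in KO, adjusted p = 2.67e-07, and 3.65 ± 0.51 in 4XKO, adjusted p = 3.07e-06). The sizes depend on how values below background are floored, while the arrays of KO and 4XKO EpiLC all lay above the limit. With values floored at the limit the differences from WT were 1.68 in KO (adjusted p = 1.35e-06) and 1.15 in 4XKO (0.000337). For 3XKO that limma fit gave 1.25 (adjusted p = 0.000201). With the EpiLC arrays of 3XKO and WT all set to the limit, this value only restates the ESC difference of 3XKO from WT (-1.25). It cannot show how far Gsc fell.

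By count, 2 genes were higher and 3 lower in EpiLC than in ESC in KO (all probes 10.8% and 9.65%). In 3XKO 1 was higher and 4 were lower (all probes 14.6% and 13.2%), and in 4XKO likewise 1 and 4 (all probes 11.1% and 9.79%). The change differed from that in WT for 5 genes in KO, 4 of them upward and 1 downward (all probes 8.55% and 7.99%). It differed for 3 genes in 3XKO, 1 upward and 2 downward (all probes 5.52% and 5.04%), and for 4 genes in 4XKO, 3 upward and 1 downward (all probes 7.28% and 7.10%). A second, narrow fit took its spread only from the 2 or 4 groups being compared. In it the calls of Tdgf1 in WT (adjusted p = 0.0632) and of Nodal (0.16) and Tdgf1 (0.168) in 4XKO were lost. The Fst change was there called different from that in WT in 3XKO (0.75, adjusted p = 0.00663) and 4XKO (0.76, adjusted p = 0.00793). Beside these genes the naive marker sum in EpiLC was 16800.1 to 17403 in KO, 4969 to 5854 in 3XKO and 16303 to 17731 in 4XKO, against 2907 to 3280.4 in WT. The EpiLC marker sum was 3482 to 3637 in KO, 18292 to 20583 in 3XKO and 5295 to 5757 in 4XKO, against 19701 to 21904 in WT. The part of these cell state differences in the results was not tested, and in bulk RNA fewer cells that express a gene cannot be told apart from less RNA per cell.

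CHIR99021 added to EpiLC for 24 hours asks which of these genes answer to Gsk3 inhibition, and through which Tcf/Lef factors. In WT, Nodal, Lefty1, Lefty2 and Fst rose by 2.82-fold to 14.9-fold, and in 3XKO these 4 genes rose as well, whereas in KO and 4XKO no rise was called. In WT 5 genes were called higher, Gsc being the fifth (all probes 3.26% higher). In 3XKO the same 5 genes were called higher (all probes 2.97% higher). In the narrow fit, Nodal (adjusted p = 0.0478) and Fst (0.0141) remained called in 3XKO, while Lefty1 (0.0748), Lefty2 (0.103) and Gsc (0.0923) were not. In KO 1 gene was called lower (all probes 0.568% lower) and in 4XKO none was called in either direction by limma (all probes 0.860% higher and 1.30% lower). At an unadjusted p under 0.05, 0 genes were higher and 1 lower in KO, and 0 were higher and 4 lower in 4XKO.

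Nodal read 370.2, 456 and 389.5 in WT EpiLC+CH, against 89.8, 80.7 and 86.5 in WT EpiLC, and all treated arrays lay far above all untreated ones (4.72-fold higher, adjusted p = 2.29e-13). In 3XKO it read 461, 421 and 597 in EpiLC+CH, against 224, 178 and 177 in EpiLC (2.54-fold higher, adjusted p = 9.87e-09). The 3XKO response was smaller than that of WT, differing by -0.89 ± 0.18 on the log2 scale (adjusted p = 0.0106, 0.189 in the narrow fit), from a higher untreated level. In KO it read 207, 228 and 219 in EpiLC+CH, against 262, 248 and 257 in EpiLC, each treated array under each untreated one, without a call (-0.23 ± 0.13, adjusted p = 0.602). In 4XKO it read 234, 202 and 199 in EpiLC+CH, against 239, 351 and 294 in EpiLC (-0.46 ± 0.13, adjusted p = 0.0516). Without 4XKO EpiLC+CH array 1, which was by a small margin closer to an untreated array than to its group, this fall was called (-0.54 ± 0.14, adjusted p = 0.0416). The fall was also called without 4XKO EpiLC array 1 (-0.605 ± 0.13, adjusted p = 0.0188). The KO response differed from that of WT by -2.47 ± 0.18 (adjusted p = 1.6e-10) and the 4XKO response by -2.70 ± 0.18 (adjusted p = 1.75e-11).

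Neither Gdf3 nor Tdgf1 was called in any line. The log2 difference of Gdf3 was -0.11 ± 0.09 in 3XKO and nearer to 0 in the other 3 lines. The log2 difference of Tdgf1 was -0.39 ± 0.30 in KO, 0.29 ± 0.30 in 3XKO, 0.05 ± 0.30 in 4XKO and 0.54 ± 0.30 in WT, within the wide spread of its probe.

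Lefty1 read 1318, 1613 and 1351 in WT EpiLC+CH, against 482, 569 and 465 in WT EpiLC (2.82-fold higher, adjusted p = 1.37e-07). In 3XKO it read 1055, 1284 and 886 in EpiLC+CH, against 321, 501 and 347 in EpiLC (2.78-fold higher, adjusted p = 2.01e-07). The groups were apart in both lines, and the 3XKO and WT responses differed by -0.02 ± 0.23 (adjusted p = 1). In KO, Lefty1 was lower, with 681, 592 and 546 in EpiLC+CH, against 1035, 938 and 1033 in EpiLC (1.66-fold lower, adjusted p = 0.0226). It is the 1 gene called in KO. The call held without KO EpiLC+CH array 1 (adjusted p = 0.0251) but was lost in each of the 5 other fits with 1 array left out (adjusted p up to 0.123) and in the narrow fit (0.158). In 4XKO it read 564, 543 and 513 in EpiLC+CH, against 790.3, 864 and 671 in EpiLC, again without overlap and not called (-0.51 ± 0.16, adjusted p = 0.102). Both responses differed from that of WT, by -2.23 ± 0.23 in KO (adjusted p = 1.92e-07) and -2.01 ± 0.23 in 4XKO (adjusted p = 7.67e-07).

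Lefty2 read 184, 202 and 195 in WT EpiLC+CH, against 53, 54.5 and 52.4 in WT EpiLC (3.63-fold higher, adjusted p = 7.94e-08). In 3XKO it read 101, 149.6 and 60.2 in EpiLC+CH, against 15.1, 27.4 and 18.5 in EpiLC (4.91-fold higher, adjusted p = 1.55e-09). In both lines every treated array lay under every ESC array. In KO it read 792, 777 and 753 in EpiLC+CH, against 840.3, 943 and 990.1 in EpiLC (-0.25 ± 0.20, adjusted p = 0.808). In 4XKO it read 415, 389.8 and 338 in EpiLC+CH, against 553, 580.5 and 572 in EpiLC (-0.58 ± 0.20, adjusted p = 0.129). All treated arrays of these 2 lines lay under all untreated ones, with no call. The responses differed from that of WT by -2.11 ± 0.28 in KO (adjusted p = 1.01e-05) and -2.44 ± 0.28 in 4XKO (adjusted p = 7.19e-07).

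Fst gave the largest response of the 7 genes in WT. It read 1127, 1203 and 1006 in WT EpiLC+CH, against 68, 77.6 and 77.7 in WT EpiLC (adjusted p = 5.02e-14). In 3XKO it read 923, 608 and 1014 in EpiLC+CH, against 113, 113 and 101 in EpiLC (7.61-fold higher, adjusted p = 3.53e-11). In the lines without Tcf7l1 no treated array exceeded 84.1. Fst read 84.1, 62.8 and 45 in KO EpiLC+CH, against 63.5, 41.7 and 47.3 in KO EpiLC, with overlapping groups. It read 73.6, 55.6 and 43 in 4XKO EpiLC+CH, against 85.2, 87.8 and 83.5 in 4XKO EpiLC (-0.61 ± 0.21, adjusted p = 0.129). The responses differed from that of WT by -3.59 ± 0.29 in KO (adjusted p = 1.85e-09) and -4.51 ± 0.29 in 4XKO (adjusted p = 1.21e-11).

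Gsc stayed near background in WT, with 4.6, 8.4 and 15.1 in EpiLC+CH, against 2.3, 3.8 and 1.6 in EpiLC, and only 1 of these 6 arrays was above the limit of 13.6. Its call in WT (adjusted p = 0.00116) became an adjusted p of 1 when values were floored at the limit. In 3XKO it read 12.8, 24.5 and 12.1 in EpiLC+CH, against 1.1, 3.2 and -0.5 in EpiLC, and that call (adjusted p = 1.02e-07) became 0.532 in the same way. No change of Gsc was called in KO (65.2, 57.9 and 57.5 in EpiLC+CH, against 70.8, 51.6 and 60.9 in EpiLC) or in 4XKO (35, 31.5 and 24.7 in EpiLC+CH, against 26.2, 26.1 and 23.5 in EpiLC), where it stayed above the limit. Its response in these lines was not called different from that of WT with all arrays. It was called different with WT EpiLC array 2 or WT EpiLC+CH array 1 left out. The differences were then -2.14 and -2.24 in KO (adjusted p = 0.0196 and 0.00819) and -1.87 and -1.97 in 4XKO (adjusted p = 0.0321 and 0.0169). With all arrays and values floored at the limit they were -0.06 in KO and 0.20 in 4XKO, neither called, so these sizes rest on values below background.

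The response was smaller than in WT for 4 genes each in KO (all probes 1.30% lower) and 4XKO (all probes 2.62% lower), and for Nodal alone in 3XKO (all probes 0.370% lower). Between 4XKO and KO no difference in response was called by limma (all probes 0.00389% higher and 0.0467% lower, and at an unadjusted p under 0.05 1 gene, Fst, was lower), with differences of -0.23 ± 0.18 for Nodal, 0.22 ± 0.23 for Lefty1, -0.33 ± 0.28 for Lefty2 and -0.92 ± 0.29 for Fst. Of the responses called or not called in KO and 4XKO, leaving out the treated array that was closest to an untreated one changed only that of Nodal in 4XKO. Beside these genes, 7 measured markers of the primitive streak summed to 1012 to 1314 in WT EpiLC+CH, where Mixl1 and Cdx2 were below background, against 31.8 to 43.7 in WT EpiLC. Their sum was 649.7 to 762 in 3XKO EpiLC+CH, against 42.1 to 73.4 in 3XKO EpiLC, 298 to 353 in KO EpiLC+CH, against 51.3 to 60.3 in KO EpiLC, and 47.6 to 95 in 4XKO EpiLC+CH, against 67.3 to 81.4 in 4XKO EpiLC. Of the 7 markers, 6 were below background in WT EpiLC, 5 each in 3XKO EpiLC and KO EpiLC, and 4 in both 4XKO groups. In EpiLC+CH, 2 were below it in 3XKO and 3 in KO. The same sum was 364 to 374.7 in WT ESC, so it is not particular to streak cells. The naive marker sum was 6874 to 8052 in WT EpiLC+CH, against 2907 to 3280.4 in WT EpiLC, and 12157 to 13395 in 3XKO EpiLC+CH, against 4969 to 5854 in 3XKO EpiLC. It was 16776 to 17936 in KO EpiLC+CH, against 16800.1 to 17403 in KO EpiLC, and 17504 to 18016 in 4XKO EpiLC+CH, against 16303 to 17731 in 4XKO EpiLC. So the naive sum was higher with CHIR99021 in WT and 3XKO, while its ranges overlapped in KO and in 4XKO. The EpiLC marker sum was 13524 to 13808 in WT EpiLC+CH, against 19701 to 21904 in WT EpiLC, and 10786 to 11992 in 3XKO EpiLC+CH, against 18292 to 20583 in 3XKO EpiLC. It was 2598 to 3115 in KO EpiLC+CH, against 3482 to 3637 in KO EpiLC, and 4792 to 5738 in 4XKO EpiLC+CH, against 5295 to 5757 in 4XKO EpiLC. The sum of the 10 extraembryonic endoderm markers, with Gata4, Foxa2, Afp and Cer1 below background in all 8 groups, was 312 to 347 in WT EpiLC+CH, against 717 to 772 in WT EpiLC, and 530.2 to 580.3 in 3XKO EpiLC+CH, against 913 to 962 in 3XKO EpiLC. It was 571 to 614 in KO EpiLC+CH, against 454 to 476 in KO EpiLC, and 381 to 393 in 4XKO EpiLC+CH, against 373 to 438 in 4XKO EpiLC. The part of these cell states in the responses was not tested.

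**Figure D2:**
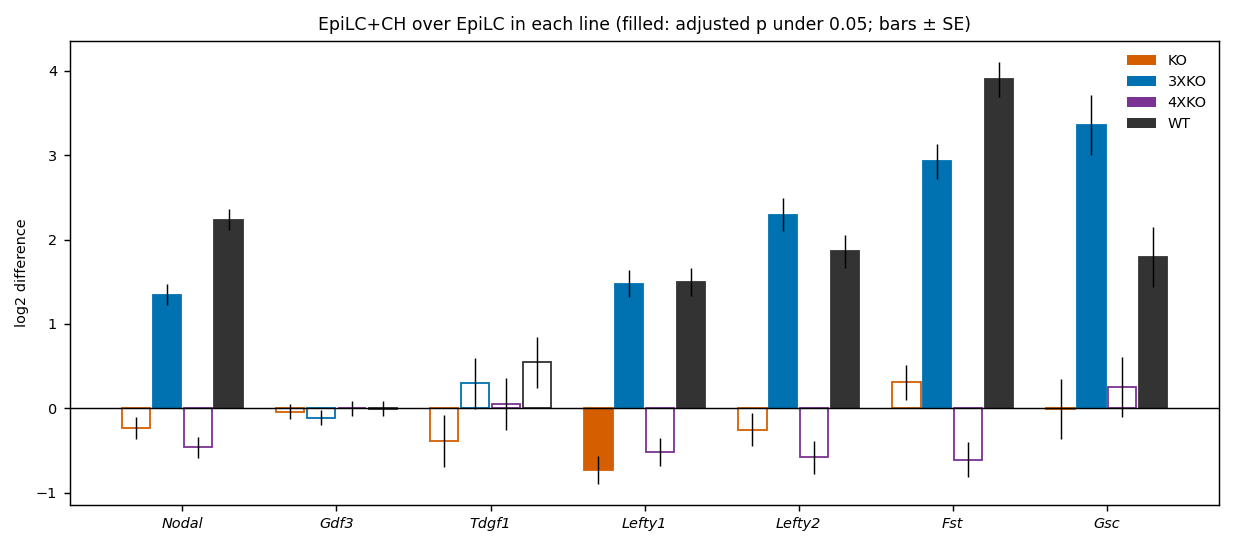
Log2 difference of EpiLC+CH over EpiLC for each gene in KO, 3XKO, 4XKO and WT (bars ± SE of the fit, 3 arrays a group; filled where the adjusted p is under 0.05). Nodal, Lefty1, Lefty2 and Fst respond in 3XKO and WT, while the Fst difference is 0.31 in KO and -0.61 in 4XKO. For the Gsc bars of 3XKO and WT, 5 of 6 arrays each lie below the limit of 13.6.

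Each knockout line was then set against WT in the same medium. In ESC medium the differences were few: Lefty1 was higher in all 3 lines, at 2.41-fold higher in KO (adjusted p = 3.15e-06), 1.79-fold higher in 3XKO (adjusted p = 0.000418) and 2.87-fold higher in 4XKO (adjusted p = 1.82e-07). No Lefty1 value of the knockout lines overlapped those of WT. Nodal read lower than in WT in all 3 lines and was called in KO alone (1.34-fold lower, adjusted p = 0.0327), a call lost in 4 of 6 fits with 1 array left out (without KO ESC array 1 or 2 or WT ESC array 1 or 2, adjusted p up to 0.142). Lefty2 was 1.62-fold higher in 4XKO (adjusted p = 0.032, up to 0.108 with 1 array left out, and lost in all 6 such fits). Gsc was 2.38-fold lower in 3XKO (adjusted p = 0.0155, 0.0644 without 3XKO ESC array 3 and 0.0512 without WT ESC array 1), and Gdf3 was 1.27-fold lower in 3XKO (adjusted p = 0.00673, 0.0547 without 3XKO ESC array 3). In the narrow fit, the 3XKO calls of Lefty1 (adjusted p = 0.0694) and Gdf3 (0.0855) were lost, and Gsc was called higher in KO (0.48, adjusted p = 0.048). The counts were 1 higher and 1 lower in KO (all probes 4.60% and 4.78%), 1 and 2 in 3XKO (all probes 6.91% and 7.27%), and 2 higher in 4XKO (all probes 3.07% higher).

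In EpiLC the lines without Tcf7l1 stood apart from WT. Lefty2 was 17.3-fold higher in KO (adjusted p = 7.4e-16) and 10.7-fold higher in 4XKO (adjusted p = 5.07e-14), but 2.70-fold lower in 3XKO (adjusted p = 2.16e-06). Gsc was at least 4.46-fold higher in KO and at least 1.86-fold higher in 4XKO, while in 3XKO and WT it was below background. Nodal was higher than in WT in all 3 lines, at 2.99-fold higher in KO, 2.24-fold higher in 3XKO and 3.40-fold higher in 4XKO (adjusted p = 4.5e-08 in 3XKO, the largest of the 3). Lefty1 was 1.99-fold higher in KO (adjusted p = 2.25e-05) and 1.53-fold higher in 4XKO (adjusted p = 0.00593), and not called in 3XKO (-0.40 ± 0.16, adjusted p = 0.0955, but 0.011 without 3XKO EpiLC array 2). Fst was 1.48-fold lower in KO (adjusted p = 0.0474), a call kept without KO EpiLC array 1 and lost in the other 5 fits with 1 array left out (adjusted p up to 0.224). Under the narrow fit, the calls of Lefty1 in 4XKO (adjusted p = 0.0515) and Fst in KO (0.123) were lost. Fst read 113, 113 and 101 in 3XKO, against 68, 77.6 and 77.7 in WT, without overlap and not called (0.55). That difference was called in the narrow fit (adjusted p = 0.0199) and without the dimmest probes (0.044). It was also called with a replicate block (0.0351) and with other priors (0.0377). The counts were 5 higher and 1 lower in KO (all probes 11.1% and 10.6%), 1 and 2 in 3XKO (all probes 9.66% and 9.11%), and 5 higher in 4XKO (all probes 10.3% higher). Brighter genes were called more often than all probes. On the chromosomes of the members, 44.4% to 52.5% of genes with a mean over 100 were called in KO, in either direction. The same shares were 39.9% to 73.3% in 3XKO and 42.9% to 47.3% in 4XKO.

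In EpiLC+CH, Fst, Lefty1 and Nodal were lower in the lines without Tcf7l1 than in WT. Fst was 17.9-fold lower in KO (adjusted p = 3.75e-15) and 19.8-fold lower in 4XKO (adjusted p = 2.29e-15). Lefty1 was 2.36-fold lower in KO and 2.63-fold lower in 4XKO, and Nodal was 1.85-fold lower in KO and 1.91-fold lower in 4XKO (adjusted p = 3.39e-06 in KO). Lefty2 was still higher, at 4.00-fold higher in KO (adjusted p = 4.82e-09) and 1.96-fold higher in 4XKO (adjusted p = 0.000416). Gsc was called higher too, with 65.2, 57.9 and 57.5 in KO and 35, 31.5 and 24.7 in 4XKO, against 4.6, 8.4 and 15.1 in WT, where 2 of 3 arrays lay below the limit of 13.6. With values floored at that limit its log2 difference from WT was 2.09 in KO (adjusted p = 2.79e-11) and 1.10 in 4XKO (4.65e-06). In 3XKO only Lefty2 (2.00-fold lower, adjusted p = 0.000363) and Gdf3 (1.39-fold lower, adjusted p = 0.000232) were called, and Lefty1 was called lower without 3XKO EpiLC+CH array 2 (-0.56, adjusted p = 0.0303). Under the narrow fit, the 3XKO calls of Lefty2 (adjusted p = 0.206) and Gdf3 (0.101) and the 4XKO call of Gsc (0.0837) were lost. The counts were 3 higher and 3 lower in KO (all probes 10.8% and 10.2%), 2 lower in 3XKO (all probes 8.65% lower), and 3 and 3 in 4XKO (all probes 10.5% and 10.1%). Beside these genes the naive marker sum in EpiLC+CH was 16776 to 17936 in KO, 12157 to 13395 in 3XKO and 17504 to 18016 in 4XKO, against 6874 to 8052 in WT, and its part was not tested. The dimmer Tdgf1 probe was called higher in 4XKO (2.22 ± 0.77, adjusted p = 0.0391), with 15, 30.4 and 38.1 in 4XKO, against -1.5, 10.3 and 16.8 in WT. With the brighter probe no difference was called (-0.16 ± 0.30, adjusted p = 0.854).

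**Figure D3:**
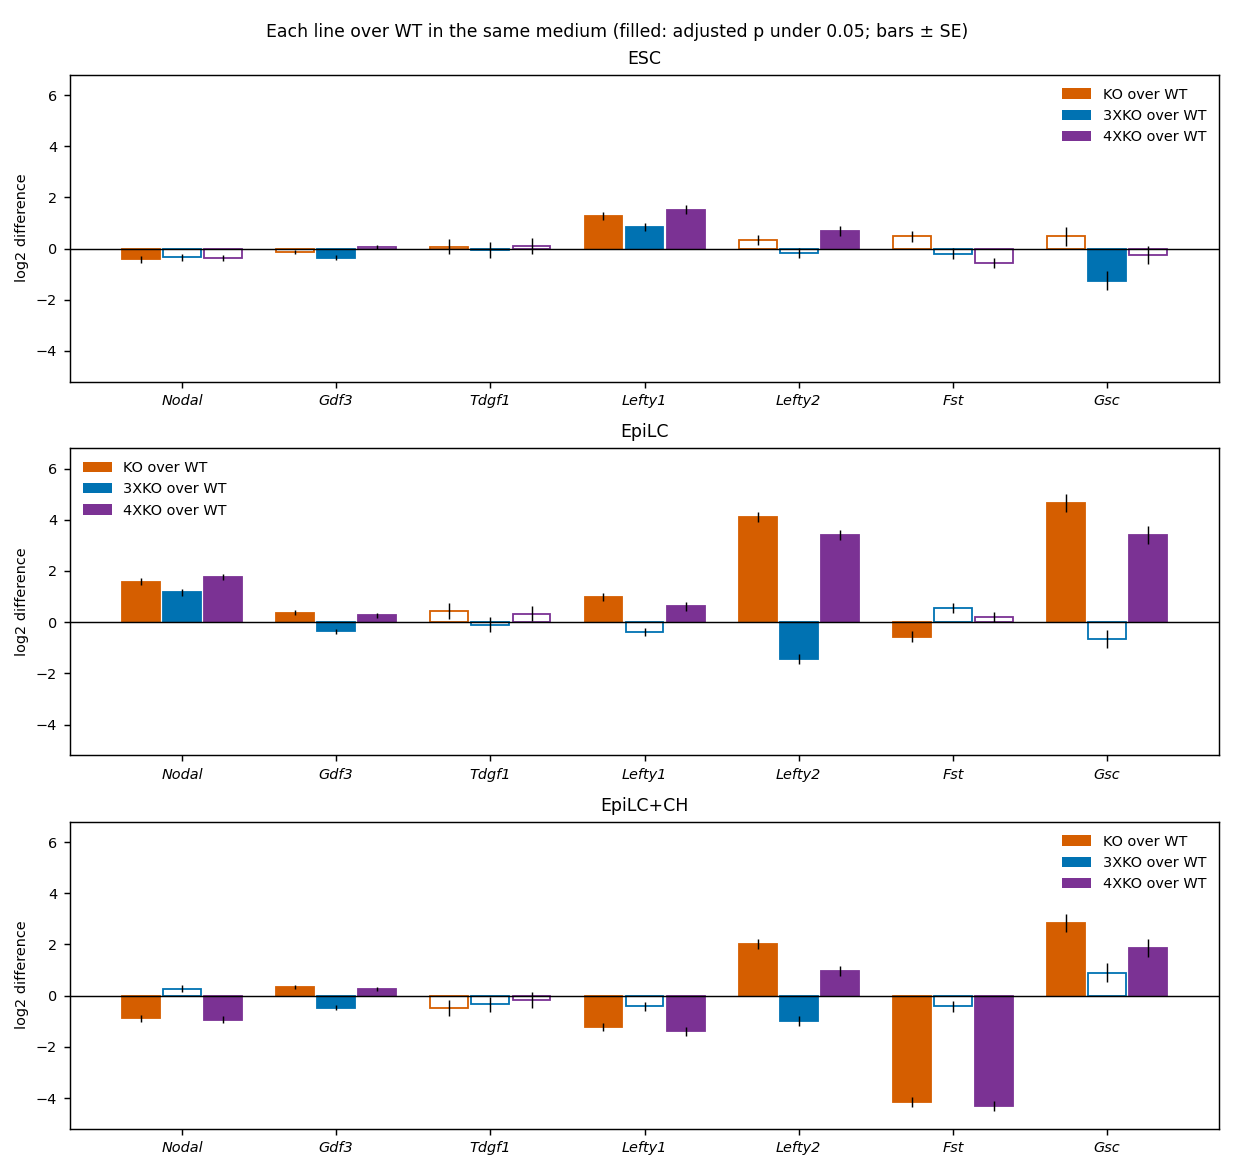
Log2 difference of KO, 3XKO and 4XKO over WT in each medium (bars ± SE of the fit, 3 arrays a group; filled where the adjusted p is under 0.05). Lefty2 and Gsc lie above WT in KO and 4XKO in both Fgf2 media, and the Fst difference in EpiLC+CH is -4.16 in KO and -4.31 in 4XKO.

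For Lefty1 and Lefty2 on chromosome 1 and Gdf3 on chromosome 6, the median level of the whole chromosome also differed from WT in some lines. The median difference from WT of 243 chromosome 1 genes was 0.50 log2 units in 3XKO ESC, 0.50 in 3XKO EpiLC and 0.55 in 3XKO EpiLC+CH, and between -0.05 and 0.06 in KO and 4XKO. The lower Lefty2 of 3XKO EpiLC (-1.43) and EpiLC+CH thus went against its chromosome, and the higher Lefty1 of 3XKO ESC (0.84) went with it. The median of 260 chromosome 6 genes was -0.21, -0.24 and -0.29 in 3XKO in ESC, EpiLC and EpiLC+CH, where Gdf3 differed by -0.35, -0.36 and -0.47. The same median was 0.18 in KO ESC, where Gdf3 read the other way without a call (-0.13 ± 0.09, adjusted p = 0.516). It was 0.19 in KO EpiLC and 0.15 in KO EpiLC+CH, where Gdf3 differed by 0.38 ± 0.09 (adjusted p = 0.00197) and 0.34 ± 0.09 (adjusted p = 0.00554, 0.0547 without WT EpiLC+CH array 2). In 4XKO, where the chromosome 6 median was 0.05 in EpiLC and 0.03 in EpiLC+CH, the Gdf3 calls (0.26 ± 0.09, adjusted p = 0.0372, and 0.26 ± 0.09, adjusted p = 0.0337) were each lost in 5 of 6 fits with 1 array left out, being kept only without 4XKO EpiLC array 2 in EpiLC and without WT EpiLC+CH array 1 in EpiLC+CH. In the narrow fit, no Gdf3 call remained in KO EpiLC+CH (adjusted p = 0.167), 4XKO EpiLC (0.14) or 4XKO EpiLC+CH (0.186). The part of the chromosome shifts in these differences was not tested.

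The comparison of 4XKO with KO asks what the loss of the other 3 factors adds where Tcf7l1 is already missing. Lefty2 was lower in 4XKO than in KO in EpiLC+CH (415, 389.8 and 338 in 4XKO, against 792, 777 and 753 in KO, 2.04-fold lower, adjusted p = 0.00124). It was the 1 gene called there (all probes 2.96% lower). In ESC only Fst was called, 2.04-fold lower in 4XKO (adjusted p = 0.000691, 0.0701 in the narrow fit, all probes 6.11% lower). Gsc in ESC (-0.74) was not called in the main fit. It was called lower in the narrow fit (adjusted p = 0.01) and with values floored at the limit (0.00139). Gdf3 in ESC (0.18) was called higher in the narrow fit alone (adjusted p = 0.0294). In EpiLC Lefty2 (1.62-fold lower, adjusted p = 0.0387) and Gsc (2.40-fold lower, adjusted p = 0.0401) were lower in 4XKO and Fst (1.71-fold higher, adjusted p = 0.0275) higher (all probes 2.02% lower and 1.94% higher). With any 1 array left out at most 1 of these genes was called (Fst, without KO EpiLC array 1). None was called when KO EpiLC arrays 2 and 3, which were close to each other (r = 0.995), were averaged.

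**Figure D4:**
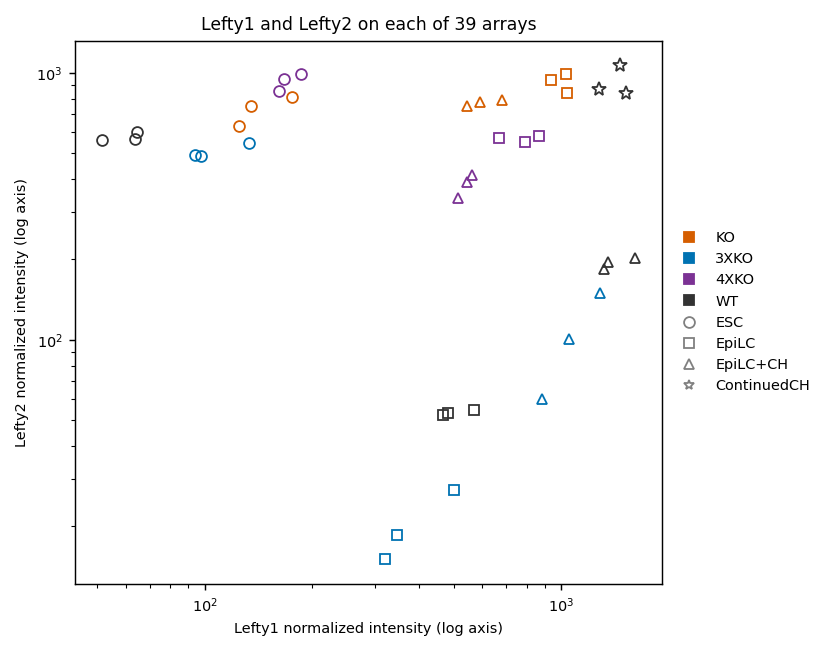
Lefty2 against Lefty1 normalized intensity (both log axes) on each of the 39 arrays, coloured by line with a symbol for each medium. ESC arrays have Lefty1 of at most 187, the EpiLC arrays of 3XKO and WT have Lefty2 of at most 54.5, and the EpiLC arrays of KO and 4XKO have Lefty2 of at least 553.

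The 2 Lefty genes were set against each other array by array. In ESC every array had Lefty1 between 51.4 and 187 and Lefty2 between 487 and 986. In EpiLC the 3XKO and WT arrays had Lefty1 between 321 and 569 with Lefty2 between 15.1 and 54.5, whereas the KO and 4XKO arrays had Lefty1 between 671 and 1035 with Lefty2 between 553 and 990. Over the 13 group means the log2 levels of the 2 genes had a Pearson correlation of -0.162, a description over groups that share lines and media. Since each gene has its own probe, only the directions can be set side by side.

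CHIR99021 given throughout with Fgf2 (ContinuedCH) was measured in WT only. It differs from EpiLC+CH both in when CHIR99021 started and in how long it was present, which cannot be told apart. Relative to EpiLC, 5 genes were called higher (all probes 9.90% higher). Lefty2 read 838, 1066 and 872 in ContinuedCH, against 53, 54.5 and 52.4 in EpiLC (17.3-fold higher, adjusted p = 8.27e-16). Gsc read 27.7, 28.8 and 37.3 in ContinuedCH, against 2.3, 3.8 and 1.6 in EpiLC (at least 2.28-fold higher). Neither gene's ContinuedCH arrays overlapped those of EpiLC. Nodal (264, 299.9 and 226) was 3.06-fold higher, Lefty1 (1521, 1461 and 1274) was 2.81-fold higher and Gdf3 (2149.6, 2482 and 2368) was 1.39-fold higher. Fst read 108, 114 and 95.7, which was not called (0.51 ± 0.21, adjusted p = 0.0917, but 0.0345 in the narrow fit).

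Relative to EpiLC+CH, ContinuedCH had 3 genes higher and 2 lower (all probes 8.81% and 7.95%). Fst was 10.5-fold lower (adjusted p = 4.32e-13) and Nodal 1.54-fold lower (adjusted p = 0.000519). Lefty2 was 4.76-fold higher (adjusted p = 7.08e-10) and Gdf3 1.39-fold higher (adjusted p = 0.000205). Gsc was called higher (adjusted p = 0.000222), but 2 of the 3 EpiLC+CH arrays lay below the limit, and with values floored at it the log2 difference was 1.14 (adjusted p = 2.96e-06). Under the narrow fit, the calls of Nodal (adjusted p = 0.0719), Gsc (0.0985) and Gdf3 (0.0799) were lost. Lefty1 differed by -0.01 ± 0.16 (adjusted p = 1). The naive marker sum was 16687 to 17629 in ContinuedCH, against 6874 to 8052 in EpiLC+CH, and the EpiLC marker sum 5175 to 5404 in ContinuedCH, against 13524 to 13808 in EpiLC+CH. Their part in these differences was not tested.

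In the separately normalized WT arrays, Lefty1 was lower with CHIR99021 after LIF and PD0325901. It read 400.4, 476 and 464 in LIF+PD+24hrCH, against 1466, 1223 and 1169 in LIF+PD (2.87-fold lower, adjusted p = 0.0405). It was the 1 gene called (all probes 0.156% lower), and with 8 arrays in the fit the call was lost in all 6 fits with 1 array left out (adjusted p up to 0.123) and with values floored at the limit (0.0955). The arrays did not overlap, and in each of those fits the difference lay between -1.59 and -1.43. Lefty2 read 829.6, 778 and 716 in LIF+PD+24hrCH, against 1449, 1962 and 1381 in LIF+PD (-1.03 ± 0.16, adjusted p = 0.142). Gsc read 227, 274 and 267 in LIF+PD+24hrCH, against 167, 150 and 177 in LIF+PD (0.63 ± 0.11, adjusted p = 0.166). For Lefty2 and Gsc too the groups were apart, without a call. Nodal read 274, 308 and 295 in LIF+PD+24hrCH, against 309, 313 and 334 in LIF+PD (-0.12 ± 0.06), with every treated array under every untreated one. Fst read 50.4, 39.8 and 62.6 in LIF+PD+24hrCH, against 33.8, 34.8 and 50.1 in LIF+PD, groups that overlapped. Beside these genes the sum of the 7 primitive streak markers, with Mixl1, Eomes and Wnt3 below background in both groups, was 1357 to 1602 in LIF+PD+24hrCH, against 80.3 to 201 in LIF+PD. The EpiLC marker sum, with Fgf5 below background, was 2803 to 3056 in LIF+PD+24hrCH, against 3891 to 4674 in LIF+PD. Their part in the differences was not tested. The direction of the Lefty1 difference was opposite to that of CHIR99021 in WT EpiLC, a contrast between differently normalized arrays that was not tested.

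The LIF+CH and PD+CH media had 1 array each and allow no test. Lefty1 read 169.7 in LIF+CH and 2547 in PD+CH, and Lefty2 read 527 in LIF+CH and 2055 in PD+CH, the highest values of both genes in this set. Nodal read 137 in LIF+CH and 342 in PD+CH. Gsc read 49 in LIF+CH and 14.4 in PD+CH, just above the limit of 14.3, and Tdgf1 read 458 in LIF+CH and 146 in PD+CH.

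**Figure D5:**
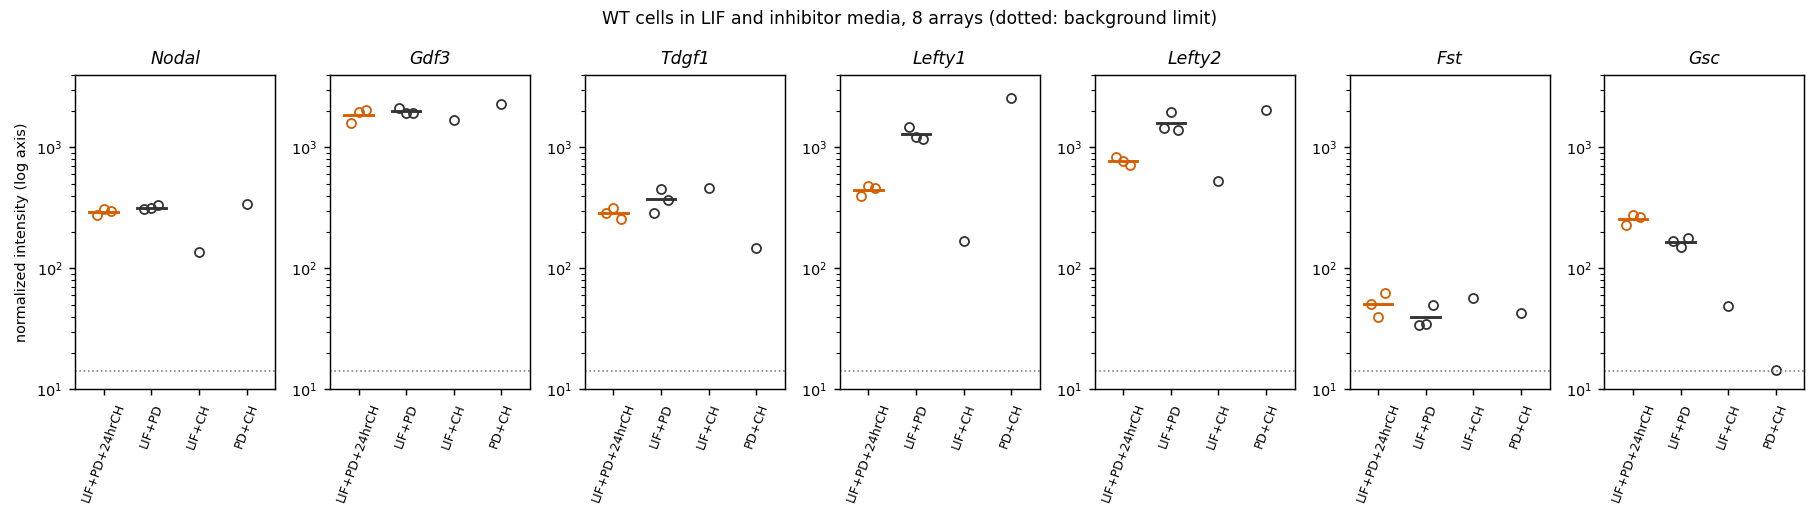
Normalized intensity (log axis) on the 8 WT arrays in LIF and inhibitor media; circles are arrays, bars are means of the groups with 3 arrays, and the dotted line is the limit of 14.3. Lefty1 lies at 400 to 476 in LIF+PD+24hrCH and at 1169 to 1466 in LIF+PD, and both Lefty genes are highest on the PD+CH array.

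The other genes of the pathway came from lists of ligands and processing enzymes, secreted antagonists, receptors, transducers, intracellular inhibitors and mesendoderm targets, 57 genes besides the 7, of which 48 had a probe. In the change from ESC to EpiLC in WT, 13 of the 48 were called higher and 3 lower (27.1% and 6.25%, against 15.7% and 14.3% of all probes), with a median log2 difference of 0.18, against 0 over all probes. Otx2, a transcription factor gene of the epiblast, was 5.34-fold higher in EpiLC, and Skil, a nuclear repressor of Smad activity, was 4.24-fold higher. Tgfbr2, the TGF-beta type II receptor gene, was at least 16.3-fold lower, and Inhbb, which encodes an activin subunit, was at least 6.79-fold lower. Foxh1, the DNA-binding partner of Smad2, was 3.13-fold higher, and it was picked for mention after its values were seen.

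In response to CHIR99021 in WT EpiLC, 6 of the 48 were called lower (12.5%, against 3.25% of all probes), with a median of -0.11. The largest fall was that of Chrd, which encodes the BMP antagonist chordin (45.8, 42.3 and 42.3 in EpiLC+CH, against 90.9, 100.2 and 96.9 in EpiLC, 2.21-fold lower, limma adjusted p = 7.29e-06). Otx2 was 1.48-fold lower, Fstl1, a gene of the follistatin family, was 1.39-fold lower, and Trim33, whose product binds Smad proteins, was 1.37-fold lower. In 3XKO 1 of the 48 was higher and 5 were lower (2.08% and 10.4%, against 2.97% and 2.88% of all probes). The lower ones were led by Chrd (3.70-fold lower) and also held Skil (1.61-fold lower) and Otx2 (1.46-fold lower), while the call of Lhx1 lay below background in both groups. The higher one was Bmp4, a ligand of the related BMP pathway (2.79-fold higher, limma adjusted p = 1.59e-11), and its response differed from that of WT by 1.32 ± 0.14 (adjusted p = 2.29e-06). In KO Otx2 alone was called (1.40-fold lower).

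Between lines in EpiLC, 5 of the 48 genes were higher and 8 lower in KO than in WT (10.4% and 16.7%, against 11.1% and 10.6% of all probes), with a median of -0.01. The counts were 8 and 5 in 3XKO (median -0.05, all probes 9.66% and 9.11%) and 5 and 8 in 4XKO (median -0.01, all probes 10.3% and 9.69%). Foxh1 averaged 51.2 ± 11.5 in KO EpiLC and 53.2 ± 11.0 in 4XKO EpiLC, against 127 ± 14.4 in WT EpiLC (SD, n = 3 arrays each). It was thus 2.51-fold lower in KO and 2.41-fold lower in 4XKO (limma adjusted p = 1.65e-06 in KO). Chrd was 3.73-fold lower in KO and 4.08-fold lower in 4XKO but 1.84-fold higher in 3XKO. Inhbb was called higher in all 3 lines. With WT below background, it was at least 2.17-fold higher in KO, at least 1.36-fold higher in 3XKO and at least 3.33-fold higher in 4XKO. Bmp4 was 4.85-fold higher in 4XKO. In 3XKO, Gata6, a transcription factor gene of endoderm, was 8.20-fold higher (160, 122 and 171 in 3XKO, against 21, 15.2 and 19 in WT), and Furin, a protease gene for ligand precursors, was 2.45-fold lower. The sum of the 10 extraembryonic endoderm markers was 913 to 962 in 3XKO EpiLC, against 717 to 772 in WT EpiLC, with the same 6 below background in both, and its part was not tested. The lists were not independent of these data, and nothing particular to them is read from their counts.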

How the data were processed

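The deposited table holds 1 intensity for each of 25697 probes on each of 47 Illumina arrays. By its values it is linear, background-subtracted and quantile-normalized by the authors in 2 sets (39 and 8 arrays). Per the submitters' processing notes lumi and limma were used, with versions and roles not given in the sources used here. Of the probes, 23978 have 1 gene symbol in the platform annotation and 1719 have none. Here values were floored at 1, log2 transformed, quantile-normalized again within each set and fitted with limma 3.58.1 (R 4.3.3), 1 mean per group, over all groups of a set. P-values of 30 comparisons, 7 of them differences between differences, were adjusted over all 25697 probes (Benjamini-Hochberg). A gene was read from its probe with the highest mean. A group below background has only a bound: the fold is then given as at least the ratio to the background limit, taken as the absolute value of each set's minimum (13.6 and 14.3). The number of arrays limits the precision. The labels call replicates biological triplicates. A block was to be used where the deviations of same-numbered arrays correlated over 0.1 for all 3 numbers. No comparison of 2 groups met this, so the main fit has no block. Single correlations were higher, up to 0.397 (replicate 3, 4XKO against KO in EpiLC), so shared deviations are not excluded. Beside the 7 genes and both Tdgf1 probes, the genes named are at most 4 per comparison, those called with the largest difference and above background, and per member the 3 genes with the most similar group means. The members, lists and rules were chosen with earlier results of these data known. Alternatives were another floor, cyclic loess, no second normalization, no dim probes, averaged probes, other priors, compared groups alone, KO EpiLC arrays 2 and 3 averaged, a replicate block and leaving out arrays. The fit was checked on simulated data. Promoters are from RefSeq (GRCm38.p6). Figures were drawn with Python 3.11.15 and matplotlib 3.10.9.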

Additional observations from a re-analysis of the deposited data

Results flagged for a closer look

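The differences listed here are those in which the same contrast differed between a knockout line and WT by limma's test of the difference itself, in log2 units, with 3 arrays a group. They are given as values, and no explanation was weighed.

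For EpiLC against ESC, the change in KO differed from that in WT by 2.00 for Nodal (adjusted p = 1.13e-09), 3.77 for Lefty2 (1.89e-11), -1.04 for Fst (0.011), 0.50 for Gdf3 (0.00456) and 4.18 for Gsc (2.67e-07). In 3XKO it differed by 1.51 for Nodal (adjusted p = 8.06e-07), -1.24 for Lefty1 (0.000413) and -1.26 for Lefty2 (0.00265). In 4XKO it differed by 2.14 for Nodal (adjusted p = 3.25e-10), -0.91 for Lefty1 (0.00572), 2.72 for Lefty2 (1.51e-08) and 3.65 for Gsc (3.07e-06). The 2 Gsc values rest on WT EpiLC arrays below background, where their size depends on the floor. With the floor at the limit they were 1.68 in KO and 1.15 in 4XKO. Gsc in 3XKO then gave 1.25. As all EpiLC arrays of 3XKO and WT were set to the limit, this only restates the lower Gsc of 3XKO in ESC.

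For EpiLC+CH against EpiLC, the response in KO differed from that in WT by -2.47 for Nodal (adjusted p = 1.6e-10), -2.23 for Lefty1 (1.92e-07), -2.11 for Lefty2 (1.01e-05) and -3.59 for Fst (1.85e-09). In 4XKO it differed by -2.70 for Nodal (adjusted p = 1.75e-11), -2.01 for Lefty1 (7.67e-07), -2.44 for Lefty2 (7.19e-07) and -4.51 for Fst (1.21e-11). In 3XKO Nodal alone differed, by -0.89 (adjusted p = 0.0106), and this call was lost when only the arrays of the compared groups entered the fit.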

How the results depend on the processing

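Of 3283 recomputed differences of the 7 genes, 3069 kept their direction and their side of the threshold, 97 lost the call, 36 gained one, 81 turned their sign while not called in either fit, and no called difference reversed. Counts of called genes moved over 1.5 times as follows, and the cause was not tested. With the spread estimated only from the groups compared, the count was 0 for 3XKO against WT in EpiLC+CH, for the CHIR99021 response in KO and for the 3XKO minus WT response, and 1 for 3XKO against WT in ESC and for 4XKO against KO in EpiLC. It was 2 for 4XKO against KO in ESC, for ContinuedCH against EpiLC+CH and for the response in 3XKO, and 3 for 4XKO against WT in EpiLC and for EpiLC against ESC in 4XKO. With the floor at the background limit it was 2 for 4XKO against KO in EpiLC+CH and in ESC, 1 for the 4XKO response and 0 for LIF+PD+24hrCH against LIF+PD. It was 1 for the 4XKO response without the dimmest probes and with other priors, and 0 for 4XKO against KO in EpiLC and the KO response with KO EpiLC arrays 2 and 3 averaged. The replicate block gave 0 for LIF+PD+24hrCH against LIF+PD (Lefty1 adjusted p = 0.438) and left every other count within 1.5 times. By the labels, same-numbered arrays share only a number.

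Leaving out 1 array at a time gave counts of 3 to 5 for 3XKO against WT in EpiLC (5 without 3XKO EpiLC array 2), 1 to 3 for 3XKO against WT in ESC, 0 to 1 for 4XKO against KO in EpiLC, and 1 for 4XKO against WT in ESC. It gave 1 to 2 for KO against WT in ESC, 3 to 5 for EpiLC against ESC in 4XKO, 0 to 1 for the response in 4XKO and in KO, 1 to 2 for the 3XKO minus WT response and 0 for LIF+PD+24hrCH against LIF+PD. The call of Gsc in the WT response was lost with the floor at the limit (adjusted p = 1) and with the spread alone (0.259).

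Over all probes, counts of calls moved over 1.5 times in 14 comparisons with the spread alone (ratios of 0.0793 to 0.61), in 4 with the other floor (0.0909 to 2.37), in 2 with KO EpiLC arrays averaged (0.421 to 0.615), in 1 with averaged probes (0.659), in 1 with the block (0) and in 3 with 1 array left out (0.328 to 2.31). Signal near background limits Gsc, Lefty2 in 3XKO EpiLC and the dimmer Tdgf1 probe.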

Other observations

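Some genes outside the pathway had group levels that ran in parallel with those of a member over the 13 groups of the first set, among 5903 genes searched. For Lefty2 these were Sh3gl2 (r = 0.975), Sox15 (0.961), a Sox family transcription factor gene, and Ppic (0.958). For Gsc they were Ly75 (0.977), Spg21 (0.975) and Plekhf1 (0.973), and for Lefty1 Pola2 (0.96), a subunit gene of DNA polymerase alpha, Cep83 (0.926) and Mcm2 (0.921), a replication helicase gene. For Nodal they were Rab12 (0.903), Sox2 (0.897), a core pluripotency factor gene, and Atxn3 (0.896). For Gdf3 they were Zfp87 (0.95), Armh4 (0.942) and Gmcl1 (0.935), and for Tdgf1 Rab18 (0.944), Hps6 (0.94) and Nipa2 (0.939). The nearest gene to Fst was Isg20l2 (0.894), followed by Xpnpep3 (0.798) and Tgfbr3 (0.794). Groups share lines and media, so these correlations describe the arrays and carry no test.

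Among the members, Lefty2 and Gsc ran most closely together (r = 0.848 over 13 groups), followed by Tdgf1 and Gsc (0.815) and by Lefty2 and Gdf3 (0.718), while Lefty1 and Tdgf1 ran opposite (-0.764). The 2 Tdgf1 probes had a correlation of 0.563 over 39 arrays. The dimmer one was lowest in replicate 1 in 11 of 13 groups, whereas the brighter one was lowest there in 6. Among the other members, Fst and Gsc were each lowest in replicate 3 in 9 of 13 groups, Lefty1 in replicate 3 in 7, Lefty2 in replicate 1 in 7, Gdf3 in replicate 2 in 9 and Nodal in replicate 1 in 5.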
